A study of Homo sapiens with 12 samples.

Results

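The mRNAs of the 3 colony-stimulating factors, CSF1, CSF2 and CSF3, were followed across adipocytes with scramble shRNA or knockdown of linc-ADAIN, with and without endotoxin. The lincRNA linc-ADAIN is a long intergenic non-coding RNA of human adipose tissue. The members are the rows with these 3 symbols among the 28901 gene names of the deposited table. The cells were ASC52telo hTERT, adipose-derived mesenchymal stem cells immortalized with hTERT, which are 1 human line. They carried a lentiviral pLVX-shRNA2 vector that expresses ZsGreen and either scramble shRNA or linc-ADAIN shRNA, were sorted for ZsGreen, and were sequenced as RNA at day 14. All groups had received insulin, dexamethasone, IBMX and rosiglitazone for 7 days, followed by maintenance medium with insulin and dexamethasone up to day 14. Each shRNA was studied without LPS (lipopolysaccharide, a bacterial endotoxin) and with LPS at 100 ng/mL for 4 h. The 4 groups of 3 libraries are called scramble control, linc-ADAIN KD (knockdown), scramble control with LPS and linc-ADAIN KD with LPS. The 3 libraries of a group are a triplicate of 1 experiment, and nothing in the labels places them in separate cultures, so n = 3 counts libraries and p-values measure the spread between them, which may be technical. The level of linc-ADAIN was not analysed here, and the study lists 1 shRNA sequence against it.

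Colony-stimulating factors are secreted glycoproteins that drive the survival, growth and differentiation of myeloid blood cells. CSF1 (M-CSF) acts on monocytes and macrophages through CSF1R, a receptor tyrosine kinase. CSF2 (GM-CSF) signals through CSF2RA and the shared subunit CSF2RB, CSF3 (G-CSF) drives neutrophil production through CSF3R, and both receptors activate JAK kinases and STAT factors. Stromal cells make CSF1 constantly, whereas CSF2 and CSF3 are known as genes switched on by inflammatory signals, with short-lived mRNAs that carry AU-rich elements in their 3′ untranslated regions (UTRs).

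The AU-rich stretches set CSF2 and CSF3 apart from CSF1 at the level of sequence, and are shown because a list that includes proteins that bind them is examined later. In each gene's canonical transcript (GENCODE annotation of GRCh38), the 30 bases of the 3′ UTR with the most AUUUA pentamers are printed 5′ to 3′ as DNA, with the pentamers, which may overlap, in capitals. The CSF1 window lies at chr1:109930922-109930951, the CSF2 window at chr5:132076079-132076108 and the CSF3 window at chr17:40016981-40017010, all on the plus strand and all in the last exon.
CSF1: tcATTTAaatatctATTTAaaagataggaa
CSF2: atATTTATTTATTTATTTATTTAagttcat
CSF3: gtATTTAtctctATTTAatATTTAtgtcta
The CSF2 window held 5 pentamers, 1 running into the next, the CSF3 window held 3 and the CSF1 window held 2. Over the whole 3′ UTR, CSF2 had 8 pentamers in 318 bases, which is 25.2 per kb, and 0.101% of 18833 genes were at least as dense. CSF3 had 7 in 854 bases, 8.2 per kb, and 2.36% of genes were at least as dense. CSF1 had 4 in 2154 bases, 1.86 per kb, and 44.7% of genes were at least as dense. The longer nonamer, AUUUA with UU on both sides, occurred 3 times in CSF2 and 0 times in CSF1 and CSF3, and 8.53% of genes held at least 1. The first pentamer of CSF3 began 24 bases after the stop codon, as the map of pentamers along the UTRs shows. These are matches of letters and no measure of mRNA decay.

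**Figure D1:**
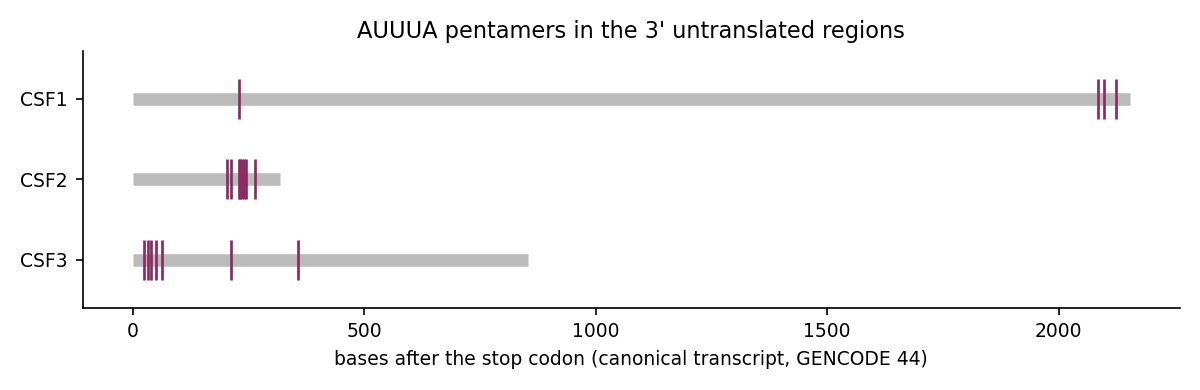
AUUUA pentamers (vertical lines) along the 3′ UTR (grey bars) of CSF1, CSF2 and CSF3, in bases after the stop codon of the canonical transcript. The 8 pentamers of CSF2 sit in 318 bases, those of CSF3 lie mostly near the stop codon, and 3 of the 4 of CSF1 lie near the end of 2154 bases.

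Of the members, CSF2 was the one matched in the RefSeq promoter table, and its promoter is shown because CSF2 was detected in 1 arm of the study. The 250 bases before its start on GRCh38.p14, chr5:132073539-132073788 on the plus strand, are printed with a match to a loose form of the NF-kB site, GGG and CC with any 5 bases between them, in capitals. The match reads on the minus strand.
CSF2 promoter: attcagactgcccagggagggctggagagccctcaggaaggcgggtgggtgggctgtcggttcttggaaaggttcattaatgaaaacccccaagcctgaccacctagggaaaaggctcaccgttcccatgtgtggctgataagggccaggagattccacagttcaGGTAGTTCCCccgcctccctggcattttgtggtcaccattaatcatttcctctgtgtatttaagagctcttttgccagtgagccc
The match begins 85 bases before the start, and 58.7% of 35116 promoters held one on either strand. The search covered both strands of 300 bases, 50 of them after the start. The core of the NFAT site, GGAAA, was found 3 times and in 61.2% of promoters, and these matches did not overlap the capitals. The stricter NF-kB consensus, the AP-1 site TGANTCA, the C/EBP site TTNNGNAA and TATAAA had 0 matches, against 11.3%, 7.71%, 36.8% and 11.5% of promoters. Absence of a match says only that these letters are not in this window.

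Library depth, as the sum of counts over all gene names, was 28.4 to 53.8 M per library (M, 1e6 counts), and 3 counts, the limit that a count of 0 allows, correspond to 0.0557 to 0.105 CPM. CPM are counts per 1e6 after TMM scaling across the 12 libraries. For each difference, the quasi-likelihood F test of edgeR was run on the 6 libraries concerned, with Benjamini-Hochberg adjustment over all genes tested and a threshold of 0.05. With 3 libraries against 3, an exact permutation test could not go below p = 0.1.

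CSF3 differed in all 4 comparisons. It was about 20-fold higher in linc-ADAIN KD than in scramble control both without and with LPS, and about 60-fold higher after LPS with either shRNA. The gene lies at chr17:40015361-40017813 (plus strand, GRCh38), and its canonical transcript has 5 exons. In scramble control CSF3 had 7, 0 and 0 counts, or 0.133, 0 and 0 CPM, a mean of 0.0443 ± 0.077 CPM (SD, n = 3). In linc-ADAIN KD it had 37, 43 and 40 counts, or 1.07, 0.798 and 0.988 CPM, a mean of 0.951 ± 0.14 CPM (SD, n = 3). CSF3 was thus nearly silent in scramble control, and all 3 KD libraries exceeded all 3 of it, the lowest KD library being at 6.01 times the value of scramble replicate 1.

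The ratio of the mean CPM values of CSF3 was 21.5. The log2 fold change was 4.32 (standard error 1.16), with an adjusted p = 0.015 in edgeR's test. In this comparison 12.1% of 16217 genes tested were called higher in KD and 15.1% lower. The size of the ratio rests on scramble replicate 1, the only scramble library with counts: without it the reference is at 0, and KD was at least 15.6-fold higher than the limit of 3 counts per library.

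After LPS, CSF3 had 127, 102 and 77 counts in scramble control, or 3.25, 3.37 and 1.80 CPM, a mean of 2.81 ± 0.87 CPM (SD, n = 3). In linc-ADAIN KD with LPS it had 1918, 2826 and 1600 counts, or 54.3, 60.8 and 56.2 CPM, a mean of 57.1 ± 3.3 CPM (SD, n = 3). The 3 KD libraries with LPS stood close together and far above all others, and the third scramble library with LPS was the lowest of its group. The mean in KD was 20.3 times that in scramble control, a log2 fold change of 4.36 (standard error 0.189, edgeR's adjusted p = 2.6e-09). Among 15981 genes tested in this comparison, 12.7% were called higher in KD and 14.2% lower.

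**Figure D2:**
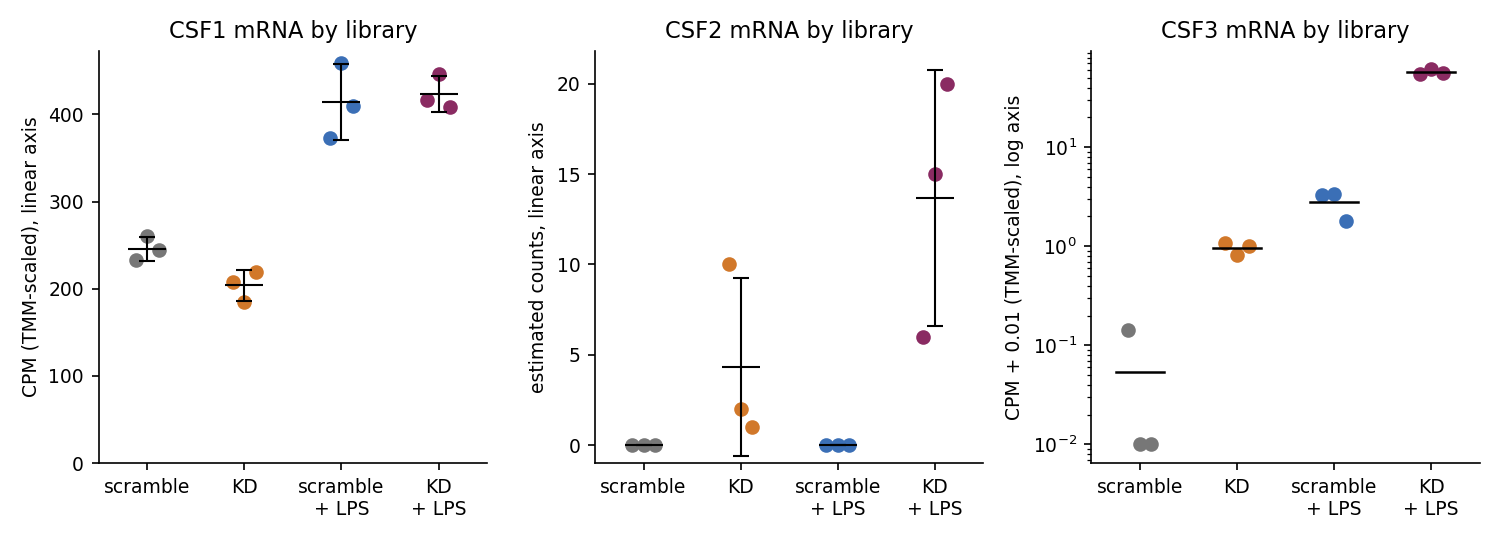
CSF1 (CPM, linear axis), CSF2 (estimated counts, linear axis) and CSF3 (CPM plus 0.01, log axis) in each of 12 libraries, with points for libraries, horizontal lines for the mean of 3 and, for CSF1 and CSF2, bars for the SD. CSF3 stepped up from scramble control to KD, to scramble control with LPS and to KD with LPS, CSF2 had counts in KD libraries alone, and CSF1 separated the libraries by LPS.

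LPS raised CSF3 with both shRNAs. In scramble control the mean was 63.4 times higher with LPS, a log2 fold change of 5.87 (standard error 0.83, edgeR's adjusted p = 0.00059), where 5.9% of 15920 genes tested were called higher with LPS and 8.38% lower. Without scramble replicate 1 the mean of 2.81 CPM was at least 46.2-fold above the limit of 3 counts per library. In linc-ADAIN KD the mean was 60.1 times higher with LPS, a log2 fold change of 5.92 (standard error 0.15, edgeR's adjusted p = 6.1e-12), where 5.32% of 16169 genes tested were called higher and 6.03% lower.

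Whether the 2 differences depend on each other was asked by the interaction of shRNA and LPS in all 12 libraries, which called 1.28% of 17173 genes. For CSF3 the interaction was 0.09 on the log2 scale, with an adjusted p = 1 in edgeR's test. DESeq2 put it at -0.0026, with a 95% interval of -1.24 to 1.23, so that a difference of about 2-fold between the KD effects without and with LPS remained inside the interval. Without scramble replicate 1 the edgeR value was -3.91 (adjusted p = 0.28), a fit against libraries at 0 that depends on the prior count. In order of level, CSF3 ran from scramble control through KD and scramble control with LPS to KD with LPS, and no neighbouring groups in this order overlapped. KD without LPS and scramble control with LPS, which differ in both shRNA and LPS, are given side by side and were not tested against each other.

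CSF2 was detected in linc-ADAIN KD libraries and in no scramble library, at very few counts. The gene lies at chr5:132073789-132076170 (plus strand, GRCh38) and has 1 annotated coding transcript of 4 exons. Its counts were 0 in all 6 scramble libraries, without and with LPS. In KD it had 10, 2 and 1 counts, or 0.288, 0.0371 and 0.0247 CPM, a mean of 0.117 ± 0.15 CPM (SD, n = 3), and 2 of these 3 values lie under the limit of 3 counts. In KD with LPS it had 6, 15 and 20 counts, or 0.17, 0.323 and 0.703 CPM, a mean of 0.398 ± 0.27 CPM (SD, n = 3). All 3 KD libraries with LPS held more than 3 counts, whereas without LPS KD replicate 1 held 10 of the 13 counts.

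Against the limit of 3 counts per library, the mean of CSF2 in KD was at least 1.96-fold higher without LPS and at least 4.86-fold higher with LPS. Without KD replicate 1 the mean without LPS, 0.0309 CPM, lay under the limit of 0.0595 CPM and gave no bound, and without KD replicate 3 with LPS the second bound was 3.0-fold. edgeR's test gave an adjusted p = 0.12 without LPS and 0.024 with LPS. The call with LPS was lost when scramble replicate 3 with LPS (adjusted p = 0.064), KD replicate 2 with LPS (0.051) or KD replicate 3 with LPS (0.096) was left out of edgeR's fit. A filter that asks for more counts per library, edgeR's filterByExpr, left CSF2 out of both KD comparisons. LPS in scramble control could not be tested for CSF2, since both groups were at 0. In KD the mean was 3.42 times higher with LPS, the libraries of the 2 groups overlapped, and the log2 fold change of 1.77 (standard error 1.39) did not pass the test (edgeR's adjusted p = 0.51). For the same reason the interaction could not be estimated for CSF2, since its LPS response in scramble control is undefined.

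CSF1 was abundant in every library, was higher after LPS with both shRNAs, and differed little between KD and scramble control. The gene lies at chr1:109910242-109930992 (plus strand, GRCh38), with 8 annotated coding transcripts, and its canonical transcript has 9 exons. Its counts ran from 7199 to 20757 per library. In scramble control CSF1 was at 232.5, 260.2 and 244 CPM, a mean of 246 ± 14 CPM (SD, n = 3), and with LPS at 373, 459.2 and 409.7 CPM, a mean of 414 ± 43 CPM (SD, n = 3). In linc-ADAIN KD it was at 207.4, 184.9 and 219.6 CPM, a mean of 204 ± 18 CPM (SD, n = 3), and with LPS at 416, 446.5 and 408 CPM, a mean of 424 ± 20 CPM (SD, n = 3). Every library with LPS lay above every library without it. These are mRNA levels, with LPS given for 4 h. On the study's cytokine array, which followed a longer LPS exposure, secreted M-CSF (the CSF1 protein) tended to be higher in KD.

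The mean of CSF1 was 68.6% higher with LPS in scramble control, a log2 fold change of 0.77 (standard error 0.0883, edgeR's adjusted p = 0.00013). In KD it was 108% higher with LPS, a log2 fold change of 1.05 (standard error 0.0784, edgeR's adjusted p = 3.8e-07). The LPS effect was larger in KD by 0.30 on the log2 scale (standard error 0.121), which did not pass after adjustment (edgeR's adjusted p = 0.33). DESeq2 gave 0.2952 with a 95% interval of 0.05 to 0.54, which is not adjusted for the number of genes. None of 6 alternative fits, DESeq2 among them, called this interaction (smallest adjusted p = 0.21).

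Without LPS, CSF1 was 16.9% lower in KD, and all 3 KD libraries lay below all 3 scramble libraries. The log2 fold change of -0.26 (standard error 0.0837) had an adjusted p = 0.035 in edgeR's test. This call was lost without scramble replicate 2 (adjusted p = 0.15), scramble replicate 3 (0.064), KD replicate 1 (0.064) or KD replicate 2 (0.096), and when libraries were scaled by library size only, which gave -0.16 (adjusted p = 0.18). That scaling moved the median of all genes from 0.02 to 0.13 on the log2 scale, and relative to this median CSF1 was at -0.29 with either scaling. With LPS the KD and scramble libraries overlapped, the means differed by 2.3%, and the log2 fold change of 0.03 (standard error 0.0834) had an adjusted p = 0.83. In order of level, CSF1 ran from KD through scramble control and scramble control with LPS to KD with LPS, and the last neighbours did not differ beyond their spread.

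**Figure D3:**
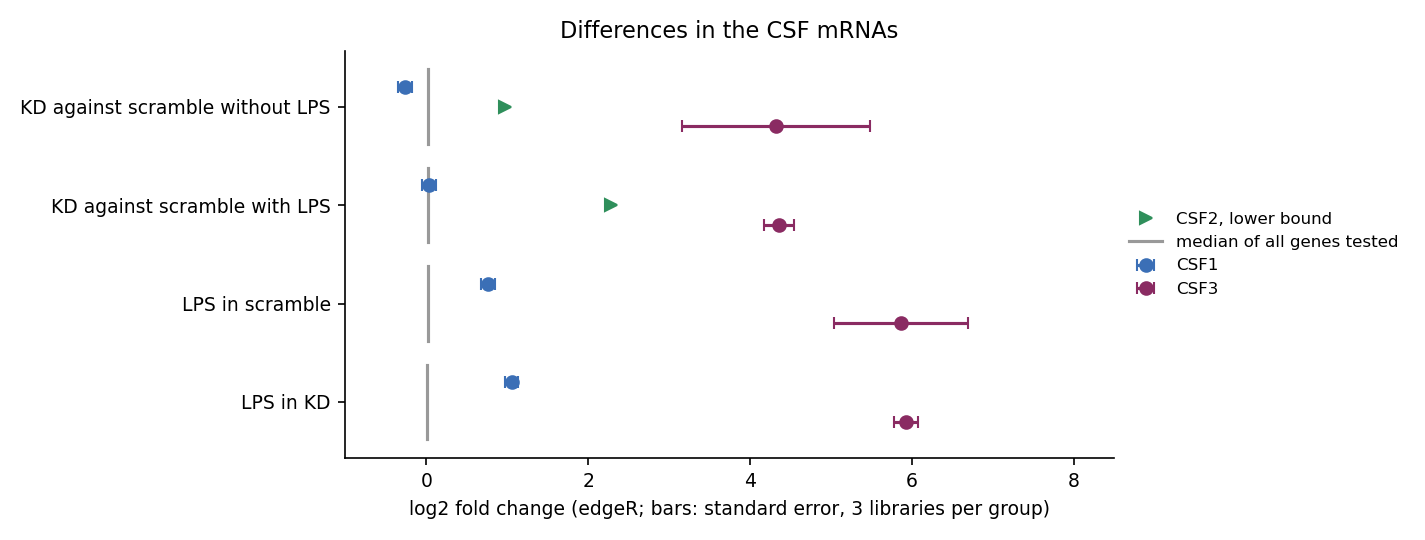
Log2 fold changes of CSF1 and CSF3 from edgeR, with standard errors as bars and 3 libraries per group, in the 4 comparisons, with lower bounds for CSF2 (triangles) and the median of all genes tested (grey). CSF3 lies at 4.32 and 4.36 for KD and at 5.87 and 5.92 for LPS, whereas CSF1 stays between -0.26 and 1.05.

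All 3 members had enough counts to be tested in both KD comparisons and for LPS in KD, and 2 of them, CSF1 and CSF3, for LPS in scramble control. CSF3 was called higher in all 4 comparisons, CSF2 in 1 and CSF1 in 2, and CSF1 was called lower in 1. Levels of the 3 mRNAs can be set against each other only per length, here CPM per kb of the median length of each gene's coding transcripts (1046 bases for CSF1, 788 for CSF2 and 1432 for CSF3). On this scale CSF1 was at 235 ± 13 in scramble control, 396 ± 41 in scramble control with LPS, 195 ± 17 in KD and 405 ± 19 in KD with LPS (SD, n = 3). CSF3 was at 0.0309 ± 0.054, 1.96 ± 0.61, 0.664 ± 0.096 and 39.9 ± 2.3 in the same order (SD, n = 3). CSF2 was at 0 in both scramble groups, at 0.148 ± 0.19 in KD and at 0.506 ± 0.35 in KD with LPS (SD, n = 3). CSF1 was the highest and CSF2 the lowest of the 3 per kb in KD and in both groups with LPS, and in scramble control CSF2 was at 0 and CSF3 under the limit of 3 counts in 2 of 3 libraries. The mean of CSF1 per kb was 202 times that of CSF3 in scramble control with LPS, 294 times in KD and 10.2 times in KD with LPS. With the longest transcript of each gene (3994 bases for CSF1 and 1673 for CSF3) these ratios were 61.9, 90 and 3.11, since the table does not tell which transcripts were present.

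The counts of the members are not shared with similar genes. Of the 31-base words of their annotated transcripts (5315 for CSF1, 758 for CSF2 and 2356 for CSF3), 0 occurred in another gene, and 0 annotated genes overlapped any of the 3. The nearest coding genes on either side of each member were named for their position, after their values were seen. PSMD3, a proteasome subunit 17402 bases before CSF3, and MED24, a Mediator subunit 1284 bases after it, passed edgeR's test in none of the 4 comparisons (adjusted p = 0.4, 0.65, 0.61 and 0.66 for PSMD3, and 0.78, 0.88, 0.36 and 0.21 for MED24, for KD without LPS, KD with LPS, the LPS effect in scramble control and that in KD). IL3, the gene 10585 bases before CSF2 and a ligand that shares its CSF2RB subunit, had 0 counts in all 12 libraries. P4HA2, a collagen prolyl hydroxylase 113977 bases after CSF2, fell in KD, with log2 fold changes of -0.78 without LPS and -0.73 with LPS (edgeR's adjusted p = 2.7e-05 and 0.00018) and did not pass for LPS. GSTM5, a glutathione transferase 134814 bases before CSF1, fell in KD, with log2 fold changes of -2.26 without LPS and -2.57 with LPS (edgeR's adjusted p = 1.4e-05 and 7.2e-07) and did not pass for LPS. AHCYL1, 53773 bases after CSF1, fell in KD with LPS by 0.47 (edgeR's adjusted p = 0.00033) and rose with LPS in scramble control by 0.37 (edgeR's adjusted p = 0.0053).

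The receptors for the members had few counts: CSF1R and CSF2RA were detected at a low level, and CSF2RB and CSF3R were at or near the detection limit. CSF2RA ran from 24 to 71 counts per library. CSF1R ran from 0 to 60 counts per library, with means of 0.91 CPM in scramble control, 0.479 in scramble control with LPS, 0.893 in KD and 0.418 in KD with LPS. CSF3R had 0 to 8 counts per library. CSF2RB had 0 counts in all libraries but some of KD, where it reached 7. CSF1R and CSF3R did not pass the test in any comparison in which they had enough counts, and CSF2RB never had enough counts to be tested.

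The list of receptors and ligands of the same families holds 13 genes, of which 7 had enough counts to be tested without LPS and 8 with LPS. In KD without LPS 2 rose and 0 fell, with a median log2 fold change of 0.34 beside 0.02 for all genes, and the count was 1 without scramble replicate 1, 2 or 3 or KD replicate 1 or 3. In KD with LPS 1 rose and 0 fell (median 0.22, all genes 0.03). The shares of all genes called in KD without and with LPS were 12.1% and 12.7% higher and 15.1% and 14.2% lower. KITLG, the ligand of the receptor kinase KIT, rose in both, from 58.6 to 111 CPM without LPS and from 50.5 to 123 CPM with LPS, with log2 fold changes of 0.92 and 1.28 (edgeR's adjusted p = 0.00014 and 4.8e-06). CSF2RA, the alpha subunit of the CSF2 receptor, rose in KD without LPS from 0.565 to 1.48 CPM, a log2 fold change of 1.38 (edgeR's adjusted p = 0.048). With LPS, CSF2RA did not pass in KD and had the opposite sign (-0.24, edgeR's adjusted p = 0.81). Its counts are uncertain, since the genome holds a near-identical second copy. For LPS, edgeR and DESeq2 each called 0 of the 6 genes tested in scramble control (median 0.28, all genes 0.02) and 0 of the 8 in KD (median 0.51, all genes 0.01), and 1 in each had an unadjusted p under 0.05. Over all genes edgeR called 5.9% and 5.32% higher with LPS in scramble control and KD, and 8.38% and 6.03% lower. IL34, a second ligand of CSF1R, had 1 to 31 counts and was not called in either KD comparison (edgeR's adjusted p = 0.055 and 0.23).

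Of 17 genes of the signalling chain below these receptors, all were tested. In KD 2 rose and 7 fell both without LPS (median -0.16, all genes 0.02) and with LPS (median -0.22, all genes 0.03), where 12.1% and 12.7% of all genes were called higher and 15.1% and 14.2% lower. The kinase JAK1 fell by 0.51 and 0.58 on the log2 scale (edgeR's adjusted p = 0.00016 and 1.9e-05), as did SOCS3, an inhibitor of CSF3R signalling, by 0.42 and 0.71 (edgeR's adjusted p = 0.047 and 0.0035). The kinase PIM3 rose, with log2 fold changes of 1.26 and 1.01. After LPS, 3 rose and 0 fell in scramble control (median 0.13, all genes 0.02), and 2 rose and 1 fell in KD (median 0.13, all genes 0.01), the first count being 5 without scramble replicate 1 with LPS. Of all genes, 5.9% were called higher and 8.38% lower in scramble control and 5.32% and 6.03% in KD, and DESeq2 called 5 genes of the list in each. JAK2, the kinase of the CSF2 and CSF3 receptors, rose with LPS by log2 fold changes of 0.99 and 1.07, and STAT5A by 1.2 and 1.76.

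Transcription factors known at the promoters of CSF genes, numbered 18, all tested. In KD 10 rose and 1 fell without LPS (median log2 fold change 0.37, all genes 0.02), and 12 rose and 2 fell with LPS (median 0.42, all genes 0.03), beside 12.1% and 12.7% of all genes called higher and 15.1% and 14.2% lower. ETS2, NFATC2 and RUNX1 rose in both, NFATC2 with log2 fold changes of 2.04 and 1.41, ETS2 with 1.13 and 1.35 and RUNX1 with 0.64 and 1.05, while FOSL1, a subunit of AP-1, fell by 0.76 and 0.81. After LPS 7 rose and 3 fell in scramble control (median 0.17, all genes 0.02) and 10 rose and 2 fell in KD (median 0.35, all genes 0.01), beside 5.9% and 5.32% of all genes called higher and 8.38% and 6.03% lower. Of the 5 NF-kB genes in the list, NFKB2 rose by log2 fold changes of 2.09 and 2.00 in scramble control and KD, REL by 1.99 and 2.16, NFKB1 by 1.29 and 1.67 and RELB by 1.21 and 1.01, whereas RELA did not pass in scramble control (-0.10, edgeR's adjusted p = 0.65) and rose by 0.36 in KD. CEBPD, a C/EBP factor of the acute response, rose by 1.42 and 1.98. These are mRNA levels, and the part of these factors in the differences of CSF1, CSF2 and CSF3 was not tested. ETS1 fell with LPS in scramble control by 0.52 and rose in KD by 0.31, and it is the 1 gene of this list called in the interaction (0.84, edgeR's adjusted p = 0.0024), a count of 3 without scramble replicate 3 and of 2 without scramble replicate 2 with LPS.

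**Figure D4:**
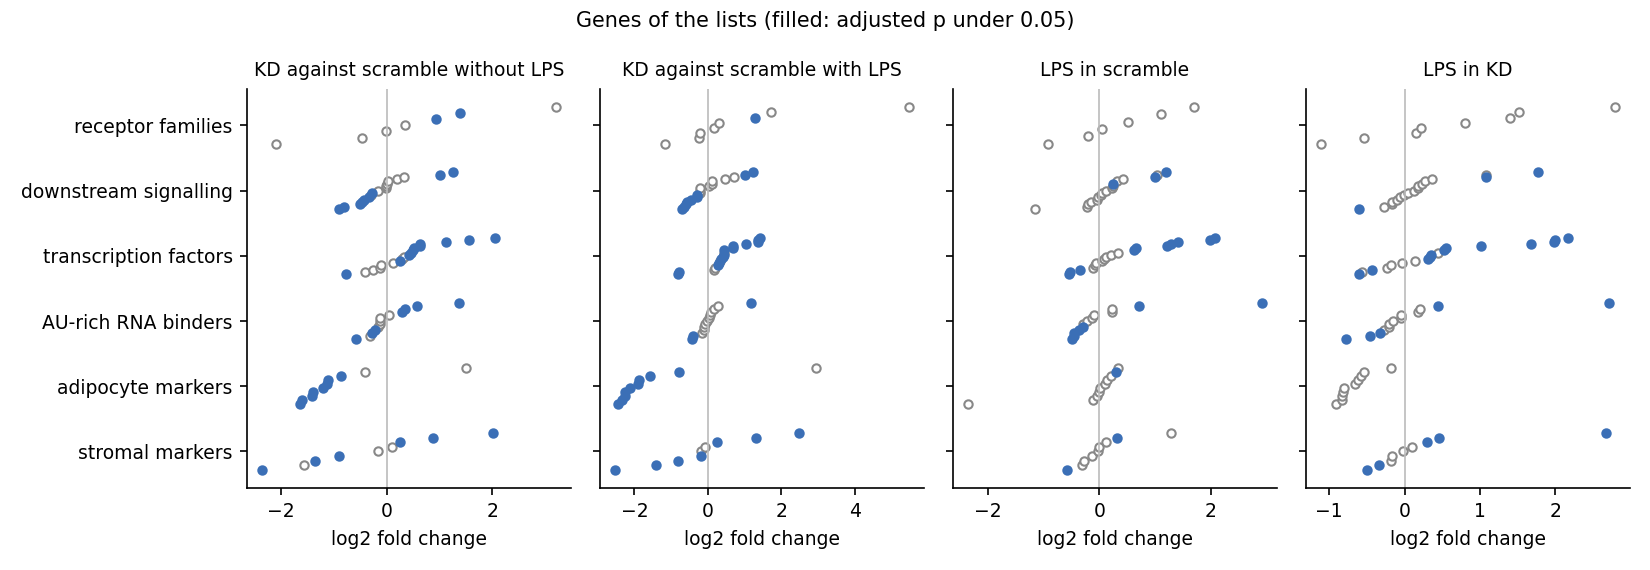
Log2 fold changes (edgeR) of the tested genes of 6 lists in the 4 comparisons, 1 point per gene and filled where the adjusted p was under 0.05. Among the transcription factors 10 rose in KD without LPS and 12 with LPS, beside 12.1% and 12.7% of all genes. Of the 10 adipocyte markers 8 and 9 fell, beside 15.1% and 14.2% of all genes.

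The list of AU-rich mRNA binders holds 13 genes, all tested, which showed no shared direction. Not all are defined by binding AUUUA stretches: ZC3H12A, RC3H1, IGF2BP1, IGF2BP2 and IGF2BP3 are other mRNA-binding proteins. In KD 4 rose and 3 fell without LPS (median -0.14), the total of 7 being 4 without scramble replicate 2, and 1 rose and 2 fell with LPS (median -0.03). Among all genes tested, 12.1% and 12.7% were called higher and 15.1% and 14.2% lower, with medians of 0.02 and 0.03. After LPS 2 rose and 5 fell in scramble control (median -0.22) and 2 rose and 3 fell in KD (median -0.15), the latter total of 5 being 3 without KD replicate 1. Among all genes tested, 5.9% and 5.32% were called higher and 8.38% and 6.03% lower, with medians of 0.02 and 0.01. ZC3H12A, an RNase that degrades cytokine mRNAs, rose in all 4, with log2 fold changes of 1.37 and 1.16 in KD without LPS and with it, and of 2.93 and 2.71 for the LPS effect in scramble control and KD. ZFP36 (tristetraprolin), which promotes decay of AU-rich mRNAs including those of CSF2, fell with LPS by 0.49 in scramble control and 0.78 in KD, and was lower in KD with LPS by a log2 fold change of -0.42 (edgeR's adjusted p = 0.035). IGF2BP2, an mRNA-binding protein, fell in KD by 0.58 without LPS and 0.40 with LPS. ZFP36L1, a relative of ZFP36, rose with LPS in scramble control by 0.72 and did not pass in KD (0.18), with an interaction of -0.53 (edgeR's adjusted p = 0.038) that was lost in 7 of the 12 fits that left out 1 library.

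Cell-type markers moved with linc-ADAIN KD beside the members. The labelled adipocytes carried ADIPOQ, FABP4 and PLIN1, but LPL, a lipase of mature adipocytes, had only 0 to 82 counts. The summed level of 10 adipocyte markers was 3320 to 4560 CPM in scramble control, 3840 to 4460 with LPS, 663 to 1970 in KD and 536 to 1250 in KD with LPS. In KD 0 rose and 8 fell without LPS (median -1.18), the total being 5 without scramble replicate 3, and 0 rose and 9 fell with LPS (median -2.01). Among all genes tested, 12.1% and 12.7% were called higher and 15.1% and 14.2% lower, with medians of 0.02 and 0.03. In these bulk libraries fewer adipocytes and less marker mRNA per cell cannot be told apart. By qPCR and western blot at day 14, the study instead reported PPARG, PLIN1, FABP4, CEBPA and ADIPOQ as higher in KD. Why these libraries differ from those assays was not tested. After LPS 1 rose in scramble control (median 0.06), a count of 0 without scramble replicate 1 or 2 or scramble replicate 2 or 3 with LPS and of 2 without scramble replicate 3. In KD edgeR called 0 (median -0.73), with 4 at an unadjusted p under 0.05, 1 by DESeq2, 8 without KD replicate 3 and 2 without KD replicate 1 with LPS. Over all genes 5.9% and 5.32% were called higher with LPS in scramble control and KD, and 8.38% and 6.03% lower. The part of adipocyte content in the differences of CSF1, CSF2 and CSF3 was not tested.

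The summed level of 10 stromal and preadipocyte markers, of which 1 was at 0, was 8700 to 9750 CPM in scramble control, 8790 to 9360 with LPS, 10100 to 11000 in KD and 11400 to 12500 in KD with LPS. Of 9 tested, 3 rose and 3 fell in KD without LPS (median -0.16) and 3 rose and 4 fell with LPS (median -0.18). For this and the following lists, the shares of all genes called were 12.1% and 12.7% higher and 15.1% and 14.2% lower (medians 0.02 and 0.03). Without LPS, DCN, LUM and PDGFRA rose and THY1, ENG and PDGFRB fell. DCN, a large part of the sum, went from 2670 to 4900 CPM, THY1 from 764 to 148, ENG from 285 to 111 and PDGFRB from 977 to 523. Blood cells are the usual targets of the members, and 12 of their markers summed to 57.4 to 61, 61 to 71.7, 89.3 to 118 and 81.5 to 110 CPM in the same order. CD3E, MS4A1 and NKG7, which mark T, B and NK cells, were at 0, and PTPRC, which marks all white blood cells, had at most 12 counts. CD163, a scavenger receptor of macrophages, rose in KD from 4.33 to 68.6 CPM without LPS and from 3.79 to 66 with LPS, whereas CD68, a lysosomal protein, fell from 53.6 to 31.1 and from 60.1 to 25.4 CPM. Of 6 blood markers tested, 1 rose and 1 fell without LPS (median 1.33) and 2 rose and 1 fell with LPS (median 1.92). The 7 endothelial markers summed to 23.8 to 27.2, 15.5 to 17, 11.9 to 12.3 and 8.48 to 13.5 CPM in the same order, and CLDN5 was at 0. Of 5 tested, 0 rose and 2 fell in KD without LPS (median -1.79), and 1 rose and 3 fell with LPS (median -0.72), a total of 4 that was 2 without scramble replicate 3 or KD replicate 1 or 2 with LPS. The part of these cells in the differences of the members was not tested.

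The pattern of each member over the 12 libraries was set against those of all other genes that averaged 50 counts or more, as the root-mean-square (RMS) difference of log2 CPM after each gene was centred on its own mean. For CSF3, whose log2 CPM had an SD of 3.62, the nearest of 11810 genes were TNFAIP6 (RMS 1.29), CCL5 (1.47), IL1B (1.48), CCL8 (1.56) and PTGS2 (1.65). They encode a hyaluronan-binding protein, 2 chemokines, interleukin-1 beta and the cyclooxygenase of inflammation. TNFAIP6 went from 9.47 CPM in scramble control to 42.3 in KD, 232 in scramble control with LPS and 824 in KD with LPS, and IL1B from 1.11 to 11, 6.06 and 138 in the same order. For CSF1, with an SD of 0.492, the nearest were MSC (RMS 0.107), CD44 (0.139), SLC2A6 (0.151), SNAI2 (0.162) and SLC25A28 (0.162). CD44, a hyaluronan receptor, was at 1110 CPM in scramble control, 978 in KD, 1740 in scramble control with LPS and 1780 in KD with LPS. For CSF2, with an SD of 1.46 at very few counts, the nearest were NXN (RMS 0.621), PAMR1 (0.623), PMAIP1 (0.659), MAP2 (0.69) and ZNF425 (0.699). PMAIP1, a BH3-only protein of apoptosis, was at 5.7 CPM in scramble control, 12.1 in KD, 6.08 in scramble control with LPS and 28.1 in KD with LPS. The 3 sets of nearest genes had no gene in common, and likeness is given as a description without a test.

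**Figure D5:**
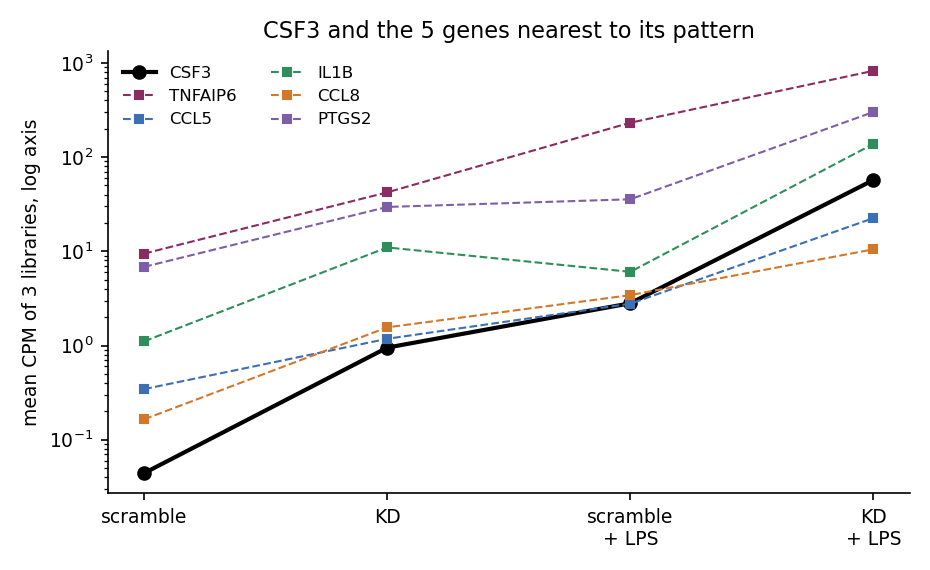
Mean CPM of 3 libraries (log axis) in the 4 groups for CSF3 and the 5 genes with the smallest root-mean-square difference from it over 12 libraries. All 6 were lowest in scramble control and highest in KD with LPS, and CSF3 had the widest span, from 0.0443 to 57.1 CPM.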

How the data were processed

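Reads of RNA-seq libraries were demultiplexed with bcl2fastq 2.19 and pseudoaligned to human transcripts (GRCh38) with kallisto 0.44.0, per the submitters' processing notes, which also name DESeq2 1.32.0. The authors deposited estimated counts per gene name, not normalized for depth or length, and these are whole numbers. The library kit keeps strand, but the strand setting, the annotation release and the tool for summing transcripts per gene are not given in the sources used here. A row without a gene name held 0.235% to 0.306% of counts and was left out. Totals on named genes were 48.1 to 53.8 M (1e6 counts) per library in scramble control, 31.5 to 44.5 M with LPS, 33.4 to 50.5 M in KD and 28.4 to 45.3 M in KD with LPS, and limits at 0 counts cover counting error only. Correlations of log2 CPM within groups were 0.971 to 0.986.

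Counts were rounded, and named genes whose counts summed to 10 or more in a fit's libraries were tested with edgeR 4.0.16 in R 4.3.3 (TMM, quasi-likelihood F test, Benjamini-Hochberg adjustment, threshold 0.05). Each of the 4 comparisons used its 6 libraries, and the interaction all 12. Standard errors are the log2 fold change divided by the square root of F. Alternatives were DESeq2 1.42.0, other scalings and filters, a 2-fold threshold, a fit of all 12 libraries, a replicate block and each library left out. The steps were tested on simulated data. A fold against a group at 0 was computed against 3 counts per library.

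The members and the lists (receptors and ligands, signalling, transcription factors, AU-rich mRNA binders, and blood, endothelial, adipocyte and stromal markers) were chosen with earlier results of these data known. The genes named are the members, any gene of these lists, and per member the 5 nearest in pattern among genes averaging 50 counts or more, with exceptions stated. Some list genes are not reported here by name. Sequences and positions come from GENCODE 44 and RefSeq.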

Additional observations from a re-analysis of the deposited data

Results flagged for a closer look

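Among the genes related to the colony-stimulating factors, 2 differed between the shRNAs in their response to LPS by a test of the difference itself, the interaction in edgeR's quasi-likelihood fit of 12 libraries. ETS1, a transcription factor known at the CSF2 promoter, had an interaction of 0.84 on the log2 scale (standard error 0.131, adjusted p = 0.0024), with means of 194 CPM in scramble control, 134 with LPS, 276 in KD and 342 in KD with LPS. ZFP36L1, which binds AU-rich mRNAs, had an interaction of -0.53 (standard error 0.12, adjusted p = 0.038), with means of 119, 194, 176 and 200 CPM in the same order, and its call was lost in 7 of the 12 fits that left out 1 library. DESeq2 called more genes of the lists in the interaction, and also more over all genes. These were 4 of 18 transcription factors, 1 of 17 signalling genes, 1 of 13 AU-rich mRNA binders and 1 of 6 endothelial markers. In edgeR's fit the interaction called 1.28% of all genes tested, and neither CSF1 nor CSF3 was among them. For CSF2 it could not be estimated, since no scramble library held counts of it.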

How the results depend on the processing

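CSF3 was called higher in KD and with LPS, and CSF1 higher with LPS, under every alternative fit at the adjusted p alone, whereas a 2-fold threshold ends the CSF1 call for LPS in scramble control (log2 fold change 0.77). Leaving out 1 library at a time gave CSF3 log2 fold changes of 3.75 to 8.44 for KD without LPS, 4.11 to 4.50 with LPS, 5.30 to 9.90 for LPS in scramble control and 5.79 to 6.0 in KD, the highest values being fits against libraries at 0. For CSF1 the ranges were -0.32 to -0.20 for KD without LPS, -0.04 to 0.11 with LPS (-0.0357 without scramble replicate 1 with LPS and -0.01 without KD replicate 2 with LPS), 0.69 to 0.84 for LPS in scramble control and 0.98 to 1.10 in KD. For CSF2 the fitted values, which depend on the prior count, were 5.42 to 5.97 and 6.28 to 7.26 for KD without and with LPS and 1.08 to 3.54 for LPS in KD. CSF2 could not be fitted for KD without LPS when KD replicate 1 was left out or under filterByExpr. Interactions ranged from 0.22 to 0.38 for CSF1 and from -3.91 to 0.68 for CSF3. Those of CSF3 were below 0 without scramble replicate 1 (-3.91), scramble replicate 3 with LPS (-0.15) and KD replicate 2 (-0.04), and by DESeq2 (-0.0026). For CSF2 the fitted values of 1.08 to 3.55 rest on scramble groups at 0 and do not measure an interaction. Genes called ranged from 3181 to 4167 and 3377 to 4033 for KD without and with LPS, 1187 to 2106 for LPS in scramble control (1187 without scramble replicate 2, 1461 without scramble replicate 3 with LPS), 1285 to 1658 in KD and 92 to 243 for the interaction (92 without scramble replicate 2, 116 and 136 without KD replicates 3 and 2 with LPS, 131 without KD replicate 1). A 2-fold threshold left 1260, 1355, 426, 363 and 74 genes, and the interaction called 475 genes by DESeq2 and 431 with no filter on low counts, against 219. The replicate block ended 2 calls, CSF1 in KD without LPS (-0.27, adjusted p = 0.07) and CSF2 in KD with LPS (6.85, adjusted p = 0.079), and changed no other call of a member. It gave 3857, 4636, 3260, 2238 and 231 genes called. Correlations of same-numbered libraries ran from -0.1 to 0.246, so the numbers were not taken to pair the libraries. Scaling by library size only gave CSF1 -0.16 in KD without LPS (adjusted p = 0.18) and moved the share of calls that were higher from 44.5% to 61.4% for KD without LPS, from 47.2% to 59.2% with LPS and from 46.9% to 35.2% for LPS in KD. With the longest transcript, levels per kb of CSF1 and of CSF3 in KD with LPS moved by more than 1 SD. Counts within lists moved by over 1.5 times in 22 results with all libraries and 48 with 1 left out. Depth limits CSF2 in all groups and CSF3 in scramble control. The causes were not tested.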
